A study of Mus musculus with 6 samples.

Results

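The CXC chemokine ligand genes Cxcl1, Cxcl2, Cxcl3, Cxcl5, Cxcl9, Cxcl10, Cxcl11, Cxcl13, Cxcl14 and Cxcl16 were followed through 3 states of mouse microglia in vitro. They were taken by name, with earlier results of these data known, and are 10 of the 36528 gene identifiers listed for each library. Polyadenylated RNA was sequenced from untreated Cop1 knockout microglia (Cop1 KO), from wild-type microglia given lipopolysaccharide (LPS), and from untreated wild-type microglia, with 2 libraries in each group. The knockout label also names loxP; the sources used here do not give the Cre driver, the strain, the age of the donors, or the dose and duration of LPS. No Cop1 KO library was given LPS. Nothing in the labels says that the libraries of a group came from separate cultures or animals, so each p-value covers the spread between these libraries alone, and that spread may be technical.

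CXC chemokines are small secreted proteins that guide leukocytes through G protein-coupled receptors. Those with a glutamate-leucine-arginine (ELR) motif before the first cysteines, among them CXCL1, CXCL2, CXCL3 and CXCL5, act on CXCR2 and draw neutrophils. CXCL9, CXCL10 and CXCL11 act on CXCR3, are induced by interferons and draw activated T cells and natural killer cells. Microglia are known to make several of them when Toll-like receptor 4 senses LPS. COP1 is a ubiquitin ligase that marks transcription factors, including C/EBP-beta, for degradation.

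The 250 bases before the annotated start are shown for 6 of the 7 ligand genes found in the promoter table (RefSeq, GRCm38.p6), because these 6 include genes that moved together, or apart, in the comparisons below. Each runs 5′ to 3′ on the gene's own strand, and positions are counted back from -1 at the base before the start. Capitals mark matches to the NF-kB motif or to the interferon-stimulated response element (ISRE, GAAA followed by any 2 bases and GAAA), searched on both strands. The windows are chr5:90890995-90891244 (plus strand) for Cxcl1, chr5:90903649-90903898 (plus) for Cxcl2, chr5:90785851-90786100 (plus) for Cxcl3, chr5:92328080-92328329 (minus) for Cxcl9, chr5:92348890-92349139 (minus) for Cxcl10 and chr13:56296552-56296801 (minus) for Cxcl14.
Cxcl1: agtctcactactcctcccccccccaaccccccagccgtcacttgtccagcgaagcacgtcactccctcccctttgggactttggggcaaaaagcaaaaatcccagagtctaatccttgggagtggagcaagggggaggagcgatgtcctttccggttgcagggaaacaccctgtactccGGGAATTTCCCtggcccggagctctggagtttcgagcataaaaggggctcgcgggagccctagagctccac
Cxcl2: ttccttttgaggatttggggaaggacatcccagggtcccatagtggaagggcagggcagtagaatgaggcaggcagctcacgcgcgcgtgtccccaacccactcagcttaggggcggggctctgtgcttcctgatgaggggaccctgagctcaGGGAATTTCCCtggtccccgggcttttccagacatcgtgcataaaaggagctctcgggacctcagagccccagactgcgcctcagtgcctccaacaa
Cxcl3: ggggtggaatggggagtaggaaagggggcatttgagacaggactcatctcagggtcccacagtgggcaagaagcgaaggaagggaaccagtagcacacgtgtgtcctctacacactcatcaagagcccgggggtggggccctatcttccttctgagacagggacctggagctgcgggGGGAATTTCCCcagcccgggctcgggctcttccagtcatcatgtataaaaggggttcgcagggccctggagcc
Cxcl10: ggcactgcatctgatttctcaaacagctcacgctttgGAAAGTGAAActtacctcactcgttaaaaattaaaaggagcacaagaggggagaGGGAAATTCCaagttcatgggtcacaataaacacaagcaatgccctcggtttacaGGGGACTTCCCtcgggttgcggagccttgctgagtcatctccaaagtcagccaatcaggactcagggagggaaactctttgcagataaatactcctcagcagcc
Cxcl9: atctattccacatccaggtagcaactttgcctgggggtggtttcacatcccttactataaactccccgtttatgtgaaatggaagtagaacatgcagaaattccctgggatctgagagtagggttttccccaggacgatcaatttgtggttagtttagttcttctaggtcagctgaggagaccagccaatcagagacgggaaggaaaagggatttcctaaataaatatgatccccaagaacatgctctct
Cxcl14: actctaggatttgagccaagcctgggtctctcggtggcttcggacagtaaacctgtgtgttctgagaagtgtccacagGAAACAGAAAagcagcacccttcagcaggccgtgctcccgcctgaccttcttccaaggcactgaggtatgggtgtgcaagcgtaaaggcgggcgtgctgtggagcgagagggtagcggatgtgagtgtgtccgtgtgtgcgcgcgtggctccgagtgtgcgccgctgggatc

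The NF-kB motif was found in the windows of 4 of the 7 genes, against 7.25% of 32851 promoter windows of the same length. Cxcl1 held it at -71 to -61, Cxcl2 at -97 to -87 and Cxcl3 at -73 to -63, in each as the run GGGAATTTCCC, which matches on both strands. That run, picked out after it was seen in these genes, was in 14 of the 32851 windows (0.0426%), these 3 included. Cxcl10 held NF-kB matches at -159 to -150 and at -104 to -94, an ISRE at -213 to -204 and an AP-1 match (TGANTCA, 6.75% of windows) at -74 to -68. The Cxcl14 window held an ISRE at -172 to -163 (2.98% of windows) and a GAS element (TTCNNNGAA, 7.02% of windows) at -191 to -183. Neither Cxcl9 nor Cxcl13 held a match to the NF-kB, ISRE, GAS or AP-1 letters. C/EBP matches (TTNCNNAA, 36.8% of windows) lay in Cxcl2, Cxcl9, Cxcl10 and Cxcl13, and the Cxcl10 match at -217 to -210 overlapped its ISRE. A match describes letters in these windows and is not a measured binding site.

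Library totals lay between 20568144 and 22553708 counts, and 15585 genes passed the filter on low counts. The 2 libraries of a group were not copies of each other: the chi-square of their counts, divided by its degrees of freedom, was 1.947 for Cop1 KO, 2.472 for LPS and 1.579 for untreated, where sampling noise alone gives about 1. Cop1, the gene targeted in the knockout, had 179 and 209 counts in Cop1 KO, 418 and 450 with LPS and 321 and 309 in untreated wild type. Against untreated wild type it fell by 28.6% in Cop1 KO (edgeR log2 fold change -0.49, SE 0.11, adjusted p = 0.00016), and this call was lost on the authors' normalised scale (-0.21 on log2(nRPKM + 1), limma). Counts cover the whole gene, so exons outside the deleted part check the label only in part. All 10 microglia markers were detected in each group, at a summed 10604 to 10685 CPM (counts scaled to library size) in Cop1 KO, 4183 to 4262 CPM with LPS and 6799 to 6860.0 CPM in untreated wild type, with Tmem119 and P2ry12 low throughout. Markers of other brain cells were present as well: 10 astrocyte markers summed to 50.6 to 54.8 CPM in Cop1 KO, 870.5 to 877 CPM with LPS and 777 to 779 CPM untreated. The 10 neuron markers summed to 7.87 to 9.97 CPM in Cop1 KO, 87.0 to 87.5 CPM with LPS and 82.2 to 82.6 CPM untreated. In bulk RNA, fewer cells of a type and less RNA per cell cannot be told apart.

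LPS-treated microglia held far more RNA of both the ELR ligands and the CXCR3 ligands than untreated wild type, led by Cxcl10 and Cxcl9, more Cxcl16 and less Cxcl14. Untreated Cop1 KO microglia held more Cxcl10, Cxcl2 and Cxcl16 and less Cxcl14 than untreated wild type, while Cxcl9 and Cxcl1 did not pass the test. Of the 10 ligand genes 9 passed the low-count filter, and Cxcl13 did not. Cxcl1, Cxcl3, Cxcl5 and Cxcl11 passed through the LPS libraries alone and so had to differ there, which leaves 5 genes whose LPS calls were not fixed by the filter. Of those 5, 4 were higher and 1 lower with LPS, where 73.7% of all genes tested were called (30.2% higher, 43.4% lower). In Cop1 KO against untreated wild type 3 ligand genes were higher, 1 was lower and 5 were not called, where 58.4% of all genes were called (28.1% higher, 30.3% lower). The 5 not called were Cxcl9 and the same Cxcl1, Cxcl3, Cxcl5 and Cxcl11, which had at most 8 counts in any library of these groups. So 4 of the 5 genes that passed without LPS were called. With such backgrounds a call alone says little, and the sizes and levels below carry the description. Scaling matters to the background: the higher share of all calls was 48.1% in Cop1 KO but 24.4% when only library size was used and 63.6% by the deposited nRPKM. With LPS these shares were 41.1%, 19.9% and 50.9%. Both comparisons use the same untreated libraries, so their values are set side by side and not correlated.

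**Figure D1:**
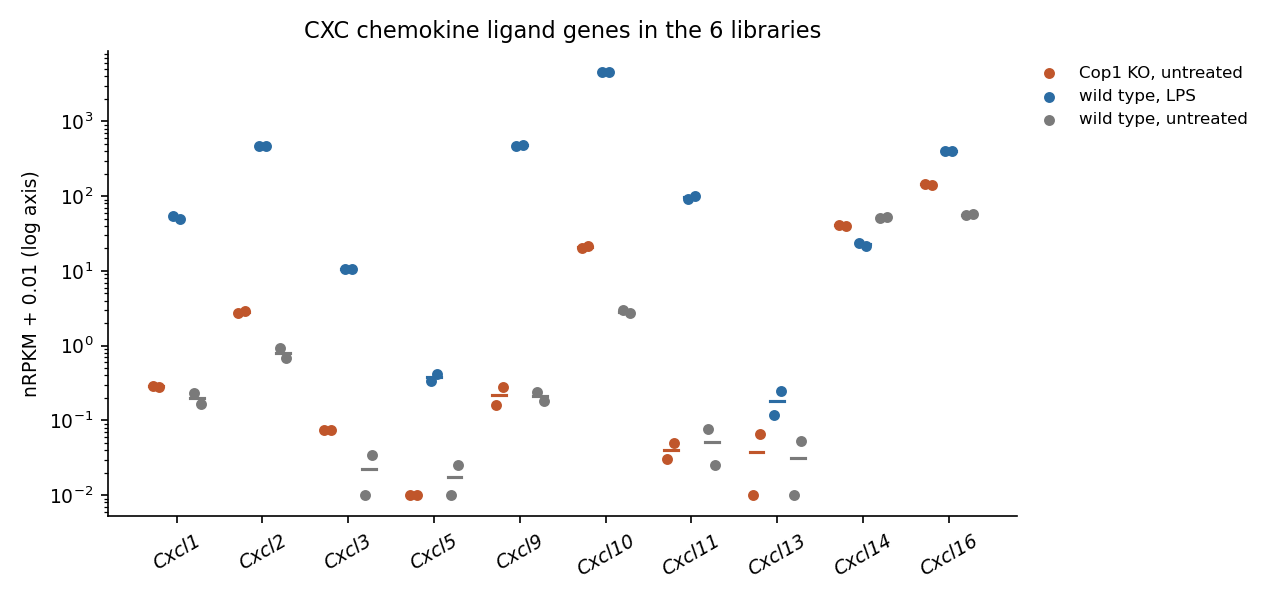
Level of each of the 10 CXC ligand genes (nRPKM plus 0.01, log axis) in Cop1 KO, LPS and untreated wild-type libraries; points are libraries and bars are group means of 2. Cxcl10 reaches 4541 and 4605 nRPKM with LPS, whereas Cxcl14 is lowest with LPS and highest in untreated wild type.

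Among the ELR ligands, Cxcl2 had the highest levels in every library. Cxcl2, which encodes a neutrophil attractant, stood at 2.73 and 2.87 nRPKM in Cop1 KO, 464.8 and 477 nRPKM with LPS and 0.917 and 0.676 nRPKM in untreated wild type; nRPKM is the authors' RPKM, a read count scaled to gene length and depth, adjusted by a size factor. No groups overlapped, and the order was LPS, then Cop1 KO, then untreated. Cop1 KO was 3.22-fold above untreated wild type (edgeR log2 fold change 1.69, SE 0.19, adjusted p = 5.7e-12). LPS was 528-fold above untreated wild type (edgeR log2 fold change 9.04, SE 0.16, adjusted p = 7.9e-63).

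Cxcl1, another CXCR2 ligand, made by many cell types on inflammatory signals, stood at 0.279 and 0.274 nRPKM in Cop1 KO, 53.9 and 49.7 nRPKM with LPS and 0.225 and 0.159 nRPKM untreated. Only 6 to 8 counts lay behind each library without LPS. The Cop1 KO libraries were above both untreated libraries on this scale, but the difference did not pass (edgeR log2 fold change 0.40, SE 0.53, adjusted p = 0.53). With LPS the fitted level was 238 times that of untreated wild type (edgeR log2 fold change 7.89, SE 0.39); no p is given, since the gene was tested through its LPS libraries alone.

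Cxcl3, their close relative, had 2 and 2 counts in Cop1 KO, 258 and 236 counts with LPS and 0 and 1 counts untreated. Its LPS libraries lay far above the rest, at 10.7 and 10.6 nRPKM. The ratio of LPS to untreated was 746, with a 95% counting interval of 133 to 29517, and the lone untreated count lay in untreated library 2, without which that group was at 0. In Cop1 KO the ratio to untreated was 4.64 with an interval of 0.459 to 228, so no difference was detectable at this depth. Cxcl2 and Cxcl3 share 126 runs of 50 bases, the read length, which is 5.84% of those in Cxcl2; reads from these runs could not be placed, since the authors counted unique alignments.

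Cxcl5, an ELR ligand best known from epithelial cells, was almost absent, with 0 and 0 counts in Cop1 KO, 13 and 15 counts with LPS and 0 and 1 counts untreated. LPS over untreated was 42.3, with a counting interval of 6.99 to 1729. Here too the untreated count came from untreated library 2 alone. The gene did not pass the low-count filter without LPS library 2.

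Among the CXCR3 ligands, Cxcl10 reached the highest level of the family with LPS. Cxcl10, the interferon-induced ligand once named IP-10, stood at 20.4 and 21.5 nRPKM in Cop1 KO, 4541 and 4605 nRPKM with LPS and 2.95 and 2.75 nRPKM in untreated wild type. All 3 groups were apart. By nRPKM it ranked 2137 and 2044 among all genes in Cop1 KO, 7 in both LPS libraries, and 8146 and 8347 in untreated wild type. With LPS it took 0.532% and 0.538% of all counts. Cop1 KO was 6.71-fold above untreated wild type (edgeR log2 fold change 2.75, SE 0.08, adjusted p = 2.7e-37), rank 42 from the top of 15585 fold changes. LPS was 1432-fold above untreated wild type (edgeR log2 fold change 10.48, SE 0.08, adjusted p = 2.4e-73), rank 19.

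Cxcl9, induced above all by interferon-gamma, stood at 0.149 and 0.271 nRPKM in Cop1 KO, 470.4 and 489 nRPKM with LPS and 0.231 and 0.174 nRPKM untreated. The Cop1 KO and untreated libraries overlapped, and the LPS libraries were far above both. Cop1 KO and untreated wild type did not differ detectably (edgeR log2 fold change -0.07, SE 0.29, adjusted p = 0.87), and the sign of this value turned with the scaling. LPS over untreated gave 2111-fold (edgeR log2 fold change 11.04, SE 0.19, adjusted p = 1.7e-67), rank 11 from the top. Cxcl9 and Cxcl10 thus stood at similar ranks of fold change with LPS, whereas in Cop1 KO their estimates were -0.07 and 2.75; the difference between the genes was not tested.

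Cxcl11, which also binds CXCR3, had 1 and 2 counts in Cop1 KO, 3537 and 3527 counts with LPS and 4 and 1 counts untreated. Cop1 KO and untreated libraries overlapped, with a ratio of 0.696 and a counting interval of 0.108 to 3.58. LPS stood 10.98 above untreated wild type on the edgeR log2 scale (SE 0.64; no p is given, as for Cxcl1), a value that was 12.21 without untreated library 1 and 10.28 without untreated library 2. RefSeq lists mouse Cxcl11 as a transcribed pseudogene on the reference strain, so these values are RNA and say nothing of protein. Gm2673, on the opposite strand, covers 41.7% of the exonic bases of Cxcl11, and the library kit does not keep the strand, so reads of the pair cannot be told apart there. For Cxcl10 the covered share is 5.91%, by Art3.

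**Figure D2:**
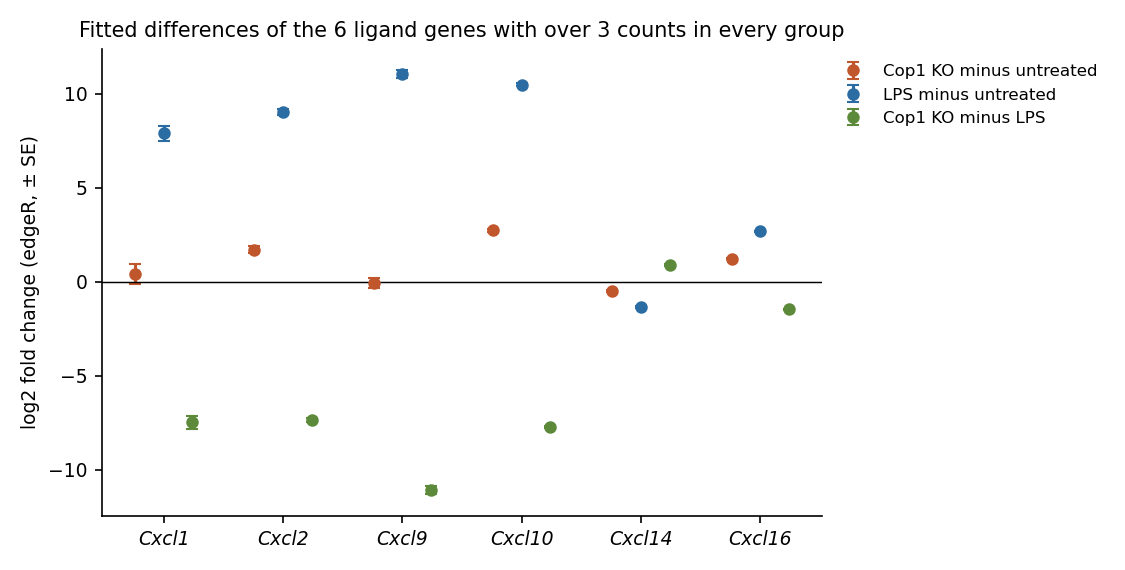
Fitted log2 fold changes (edgeR, bars are SE) of the 6 ligand genes with more than 3 counts in every group, for Cop1 KO minus untreated, LPS minus untreated and Cop1 KO minus LPS. Cxcl10 lies at 2.75 and 10.48 above untreated wild type in Cop1 KO and LPS, while Cxcl9 lies at -0.07 and 11.04.

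Cxcl16 RNA was abundant in all 3 states. It encodes a membrane-anchored chemokine that is shed to act on CXCR6 and that also takes up oxidised lipoprotein. Its level was 145 and 143 nRPKM in Cop1 KO, 408 and 402 nRPKM with LPS and 55.4 and 57.5 nRPKM in untreated wild type. Groups did not overlap, in the order LPS, Cop1 KO, untreated. The rise in Cop1 KO was 2.32-fold (edgeR log2 fold change 1.22, SE 0.03, adjusted p = 5.9e-37), and with LPS it was 6.40-fold (edgeR log2 fold change 2.68, SE 0.03, adjusted p = 6.8e-54). Zmynd15, on the opposite strand, covers 18.3% of the exonic bases of Cxcl16.

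Cxcl14 ran the other way. It encodes a ligand made without inflammatory stimulus in epithelia and in the brain, and no receptor is agreed on for it. Its level was 41.5 and 40.3 nRPKM in Cop1 KO, 23.7 and 21.7 nRPKM with LPS and 51.4 and 53.5 nRPKM untreated. Groups again did not overlap, but untreated wild type was now highest. Cxcl14 fell by 28.7% in Cop1 KO (edgeR log2 fold change -0.49, SE 0.04, adjusted p = 1.1e-15) and fell by 61.2% with LPS (edgeR log2 fold change -1.37, SE 0.05, adjusted p = 4.1e-33). The median over all genes was -0.01 in Cop1 KO and -0.18 with LPS. Beside the Cop1 KO value, 9 of 10 astrocyte markers were lower and 1 higher than in untreated wild type, and all 9 neuron markers tested were lower, with Nefl at 0 in Cop1 KO. Of those 9, Snap25 passed the low-count filter through the untreated libraries alone. Among all genes tested, 58.4% were called in Cop1 KO (28.1% higher, 30.3% lower) and 73.7% with LPS (30.2% higher, 43.4% lower). With LPS, 5 astrocyte markers were higher, 1 was lower and 4 were not called, and 2 neuron markers were higher, 3 lower and 4 not called. The part of these cells in either Cxcl14 difference was not tested.

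Cxcl13, which draws B cells through CXCR5, was close to absent. It had 0 and 2 counts in Cop1 KO, 3 and 6 counts with LPS and 0 and 2 counts untreated. LPS over untreated was 6.79 with a counting interval of 1.41 to 64.6, and no ratio was formed between Cop1 KO and untreated wild type.

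The mixture of ligand RNA differed between the states. Shares of the summed nRPKM of the 10 genes, which allow genes of different length to be compared, were led by Cxcl16 in Cop1 KO (68.96% and 68.6%), followed by Cxcl14 (19.8% and 19.4%) and Cxcl10 (9.72% and 10.3%). With LPS, Cxcl10 took 74.9% and 74.8%, Cxcl9 7.75% and 7.94%, Cxcl2 7.66% and 7.74% and Cxcl16 6.73% and 6.54%. In untreated wild type Cxcl16 took 49.9% and 50.1% and Cxcl14 46.2% and 46.6%, and Cxcl10 took 2.65% and 2.39%. The leading gene was therefore Cxcl16 in both untreated states and Cxcl10 with LPS. The sum itself was 209.8 and 208 nRPKM in Cop1 KO, 6066 and 6156 nRPKM with LPS and 111 and 115 nRPKM untreated. As a share of all counts the 10 genes made up 0.0689% and 0.0677% in Cop1 KO, 0.869% and 0.880% with LPS and 0.0468% and 0.0484% in untreated wild type.

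**Figure D3:**
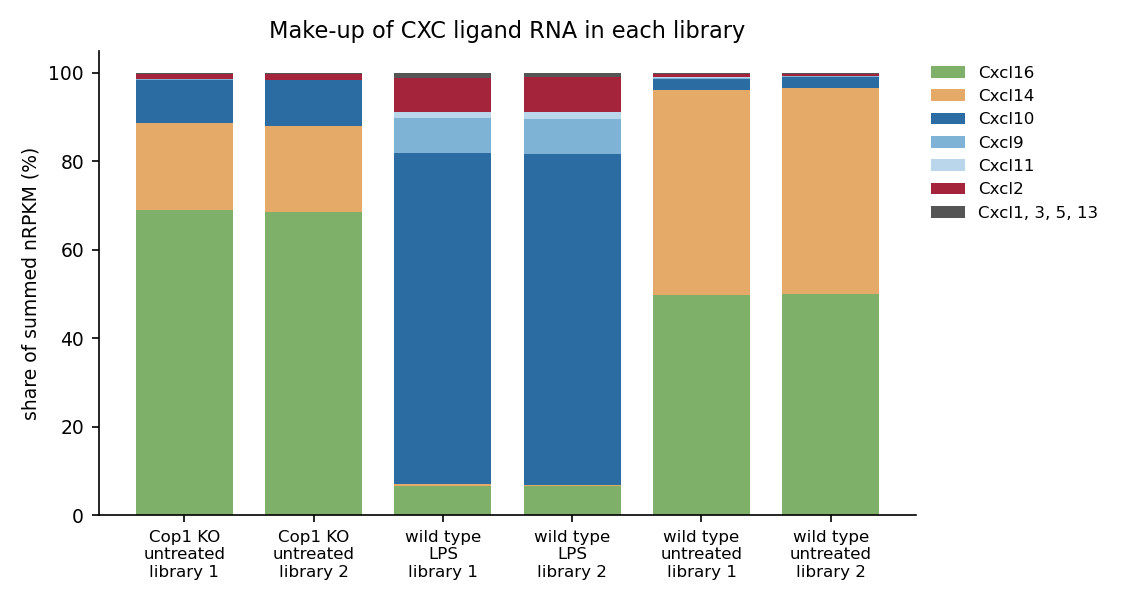
Share of each ligand gene in the summed nRPKM of the 10 genes (%), by library, with Cop1 KO on the left, LPS in the middle and untreated wild type on the right. Cxcl16 leads in Cop1 KO (68.96% and 68.6%), and Cxcl10 leads with LPS (74.9% and 74.8%).

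Set directly against LPS-treated wild type, Cop1 KO microglia held less RNA of the inflammatory ligands and more Cxcl14. In this comparison 1 ligand gene was higher and 8 were lower, where 79.6% of all genes tested were called (39.9% higher, 39.6% lower); the 4 genes that passed the filter through LPS alone are among the 8. Cxcl10 was 213-fold lower in Cop1 KO (edgeR log2 fold change -7.74, SE 0.04, adjusted p = 3.3e-71). For Cxcl9 the factor was 2213 (edgeR log2 fold change -11.11, SE 0.21, adjusted p = 6.2e-67), and for Cxcl2 it was 164 (edgeR log2 fold change -7.36, SE 0.10, adjusted p = 2.1e-61). Cxcl1 had a fitted factor of 180.3 (edgeR log2 fold change -7.49, SE 0.36), with no p for the reason given above. Cxcl16 was 2.75-fold lower (edgeR log2 fold change -1.46, SE 0.03, adjusted p = 1.4e-42). Cxcl14 was 1.84-fold higher in Cop1 KO (edgeR log2 fold change 0.88, SE 0.05, adjusted p = 8e-24). Of the sparse genes, Cxcl3 stood at -7.24 on the edgeR log2 scale (SE 0.74), from 4 counts over both Cop1 KO libraries. Cxcl11 was lower by a factor of 3066 with a counting interval of 1049 to 14871, Cxcl5 was at least 12.2-fold lower in Cop1 KO, measured to a floor of 3 counts over the group, and Cxcl13 was lower by a factor of 5.86 with an interval of 1.21 to 55.7.

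Of the 10 genes 8 lie on chromosome 5 (GRCm38.p6), 7 of them in 2 clusters. Cxcl5, Cxcl3, Cxcl1 and Cxcl2 span 90759298 to 90905938, a stretch of 146.6 kb that also holds Ppbp, Pf4 and Cxcl15. Cxcl9, Cxcl10 and Cxcl11 span 92321331 to 92363296, 42.0 kb, and Cxcl13 lies at 95956939 to 95961068. Cxcl14 lies on chromosome 13 at 56288643 to 56296811 and Cxcl16 on chromosome 11 at 70454389 to 70459984. Besides the 4 ligand genes, 2 genes within 100 kb of the ELR cluster were tested, and neither Pf4 nor Mthfd2l was called with LPS. Pf4, which encodes platelet factor 4 and sits between Cxcl5 and Cxcl3, stood at 17.9 and 16.2 nRPKM in Cop1 KO, 25.2 and 20.02 nRPKM with LPS and 18.4 and 19.2 nRPKM untreated, and Cxcl15 had no count in any library. Within 100 kb of the CXCR3 ligand cluster 5 other genes were tested. Of these, 4 were higher and 1 lower with LPS, where 73.7% of all genes tested were called (30.2% higher, 43.4% lower). Those higher were Naaa (3.14-fold), Nup54 (1.79-fold), Sdad1 (1.33-fold) and Art3 (5.50-fold). Art3, which overlaps the cluster, was tested through its LPS libraries alone. It shares 84 runs of 50 bases with Cxcl10, and the libraries do not keep the strand, so reads of the pair cannot be told apart there. The gene lower was Scarb2, which stood at 72.0 and 71.1 nRPKM in Cop1 KO, 49.4 and 50.7 nRPKM with LPS and 54.2 and 52.4 nRPKM untreated. Its edgeR log2 fold change with LPS was -0.25 (SE 0.04), close to the median of all genes (-0.18).

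**Figure D4:**
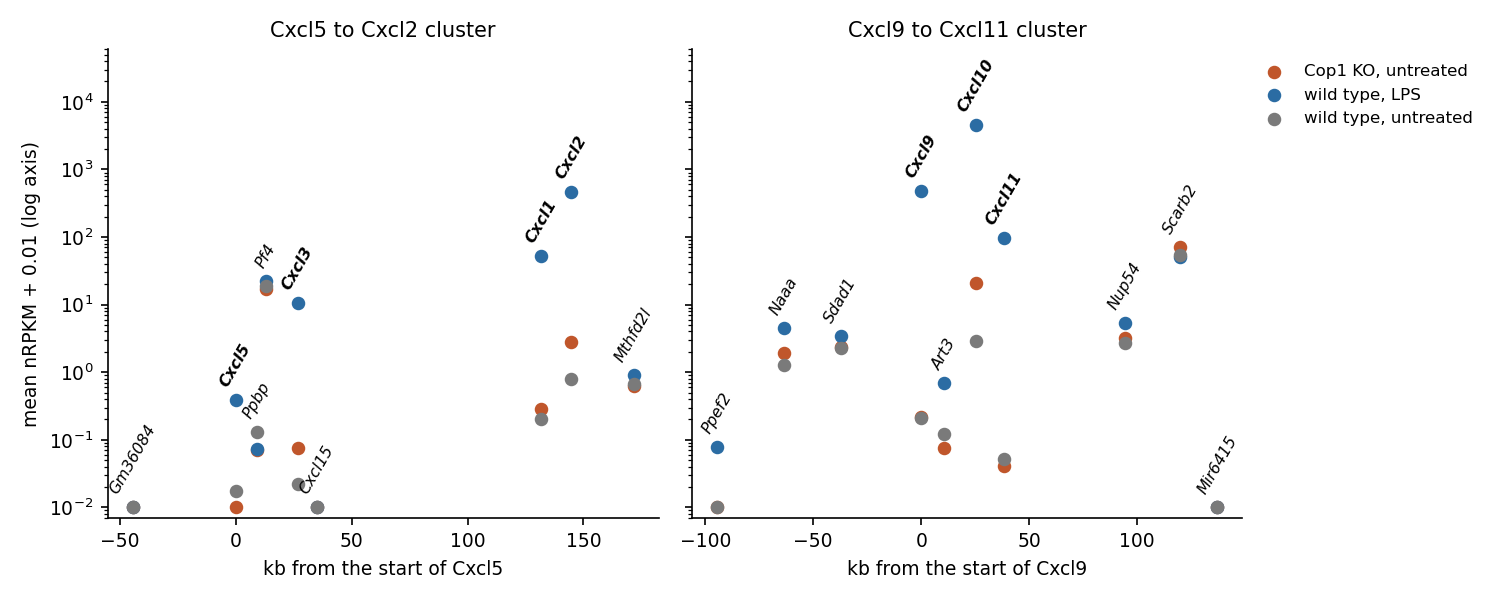
Mean level of each gene (nRPKM plus 0.01, log axis) against its distance in kb from the start of Cxcl5 (left) or Cxcl9 (right), with ligand genes of the set in bold; points are group means of 2 libraries. The LPS point of each bold gene lies well above its other points, whereas the 3 points of Pf4 (25.2 and 20.02 nRPKM with LPS) and of Scarb2 (49.4 and 50.7 nRPKM with LPS) lie close together.

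The remaining CXC ligand genes were low or changed little. Pf4 was lower in Cop1 KO by a small margin (edgeR log2 fold change -0.27, SE 0.10, adjusted p = 0.014), a call lost with median-of-ratios scaling, on the authors' scale, and without Cop1 KO library 2 (-0.19) or untreated library 2 (-0.24). Its LPS value of 0.11 was not called, but other settings called it in both directions, higher with median-of-ratios factors (0.25), with the 2 groups alone (0.25) and without LPS library 2 (0.26), and lower with library size only (-0.45). Cxcl12, the homeostatic ligand of CXCR4, had 6 and 5 counts in Cop1 KO, 32 and 24 counts with LPS and 1 and 5 counts untreated. It was tested through its LPS libraries alone, so no p is given for its LPS value (edgeR log2 fold change 3.75, SE 0.70). Ppbp had at most 6 counts in a library, and Cxcl15 and Cxcl17 had none.

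Of 8 receptor genes 5 passed the filter, and Cxcr4 was by far the most abundant. Cxcr4, the receptor of CXCL12, stood at 127 and 129.6 nRPKM in Cop1 KO, 0.528 and 0.323 nRPKM with LPS and 64.4 and 66.0 nRPKM untreated. LPS libraries were thus far below the rest, and Cop1 KO lay above untreated wild type. The change was 1.80-fold higher in Cop1 KO (edgeR log2 fold change 0.85, SE 0.04, adjusted p = 3.7e-27) and 169-fold lower with LPS (edgeR log2 fold change -7.40, SE 0.22, adjusted p = 1e-52). Cop1 KO was 304-fold above LPS (edgeR log2 fold change 8.25, SE 0.22, adjusted p = 1.9e-56).

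Cxcr3, the receptor of CXCL9, CXCL10 and CXCL11, was at 2.13 and 2.04 nRPKM in Cop1 KO, 3.87 and 3.87 nRPKM with LPS and 0.868 and 0.941 nRPKM untreated. It rose in both states, by 1.07 in Cop1 KO (edgeR log2 scale, SE 0.19, adjusted p = 2e-06) and by 1.93 with LPS (SE 0.18, adjusted p = 1.7e-14). T and natural killer cells are known to express it. The 8 lymphocyte markers summed to 0.397 to 0.540 CPM in Cop1 KO, 0.279 to 0.543 CPM with LPS and 0.596 to 0.873 CPM untreated, with Cd3e, Cd3g and Ncr1 at 0. Klrb1c, a natural killer cell marker, had 4 and 5 counts in Cop1 KO, 0 and 5 counts with LPS and 20 and 14 counts untreated. The part of such cells in the Cxcr3 difference was not tested. Cxcr6, the receptor of CXCL16, had 7 and 2 counts in Cop1 KO, 14 and 16 counts with LPS and 2 and 4 counts untreated. It too was tested through its LPS libraries alone (edgeR log2 fold change with LPS 2.86, SE 0.74).

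Cxcr5, the receptor of CXCL13, rose with LPS (edgeR log2 fold change 2.09, SE 0.36, adjusted p = 2.6e-07), with 14 and 20 counts in Cop1 KO, 40 and 45 counts with LPS and 18 and 12 counts untreated. Ackr3, which clears CXCL11 and CXCL12, was 4.46-fold lower in Cop1 KO against untreated wild type (edgeR log2 fold change -2.16, SE 0.37, adjusted p = 1.3e-07) and stood at -0.01 with LPS, a value that was not called except with library size only (-0.57, adjusted p = 0.035). It is also expressed by astrocytes, whose marker sums in the same libraries are given above; their part in the Ackr3 difference was not tested. Cxcr2, the receptor of the ELR ligands, had 0 counts in Cop1 KO and with LPS and 4 and 3 counts in untreated wild type. Cxcr1 had at most 1 count in a library, and Ackr1 had 0 counts in Cop1 KO, 4 and 2 counts with LPS and 6 and 9 counts untreated.

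**Figure D5:**
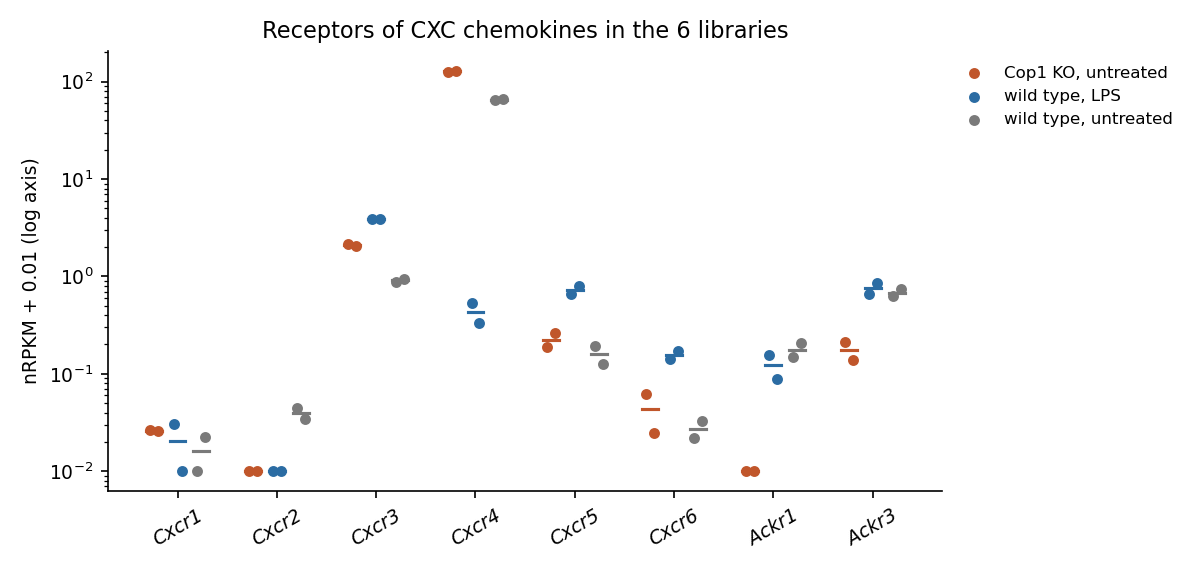
Levels of 8 CXC receptor genes (nRPKM plus 0.01, log axis) in Cop1 KO, LPS and untreated wild-type libraries; points are libraries and bars are group means of 2. Cxcr4 is at 127 and 129.6 nRPKM in Cop1 KO and 0.528 and 0.323 nRPKM with LPS.

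Genes of the pathways known to drive these ligands moved in both states, where 58.4% of all genes tested were called in Cop1 KO (28.1% higher) and 73.7% with LPS (30.2% higher). Of 10 NF-kB genes 9 were higher and 1 lower in Cop1 KO (median log2 fold change 0.76, all genes -0.01), and all 10 were higher with LPS (median 3.69, all genes -0.18). Nfkbiz, a nuclear co-activator of inflammatory genes, rose 2.32-fold in Cop1 KO (edgeR log2 fold change 1.22, SE 0.07) and by 5.28 with LPS (SE 0.06). Nfkbia, the inhibitor that NF-kB itself induces, rose by 0.89 in Cop1 KO (SE 0.04) and 4.42 with LPS (SE 0.04), and Nfkb2 by 0.77 and 4.68 (SE 0.04 each). The gene that fell in Cop1 KO was Tnfaip3, which encodes the deubiquitinase A20 (-0.22, SE 0.04); with LPS it was up by 3.66 (SE 0.04).

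All 13 interferon pathway genes were higher in Cop1 KO (median 0.79), and 12 were higher and 1 lower with LPS (median 2.48), against 28.1% of all genes higher in Cop1 KO and 30.2% higher with LPS. Of the 12, Ifnb1 was tested through its LPS libraries alone. Irf7, an interferon-induced transcription factor, was at 82.1 and 83.6 nRPKM in Cop1 KO, 922 and 877 nRPKM with LPS and 14.1 and 14.6 nRPKM untreated. This was a rise of 2.40 in Cop1 KO and 5.80 with LPS on the edgeR log2 scale (SE 0.04 each). Stat2 rose by 1.79 in Cop1 KO and 3.74 with LPS, and Irf1 by 1.09 in Cop1 KO and 4.13 with LPS, on the same scale. Ifnb1, which encodes interferon-beta, had 8 and 4 counts in Cop1 KO, 322 and 265 counts with LPS and none in untreated wild type, at least 4.64-fold and at least 295-fold higher against a floor of 3 counts over the group. The gene lower with LPS was Ifngr1, a chain of the interferon-gamma receptor (-1.36, SE 0.05), which was higher in Cop1 KO (0.55, SE 0.04).

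Of 6 genes around C/EBP and COP1, 4 were higher and 1 lower in Cop1 KO and also with LPS, each against untreated wild type. Since 58.4% of all genes were called in Cop1 KO and 73.7% with LPS, these counts in a short list are no result about it. The gene lower in Cop1 KO was Cop1 itself. Cebpb rose by 0.51 in Cop1 KO (edgeR log2 scale, SE 0.04) and 1.78 with LPS (SE 0.04), and Cebpd by 0.96 (SE 0.09) and 2.16 (SE 0.08). Trib1, which encodes the adaptor between COP1 and C/EBP proteins, rose by 1.64 in Cop1 KO (SE 0.05) and 0.23 with LPS (SE 0.06). Cebpa differed in size and direction, at 0.19 in Cop1 KO (SE 0.03) and -6.35 with LPS (SE 0.11).

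Of 5 regulators of chemokine RNA decay 4 were higher and none lower in Cop1 KO, and 2 were higher and 2 lower with LPS. With 58.4% of all genes called in Cop1 KO and 73.7% with LPS, these counts are no result about the list. Zc3h12a, an endonuclease that degrades inflammatory transcripts, rose by 0.79 in Cop1 KO (edgeR log2 scale, SE 0.06) and 3.76 with LPS (SE 0.06). Zfp36, which encodes tristetraprolin and is known to destabilise ELR ligand RNA, rose by 0.23 in Cop1 KO (SE 0.03; 0.04 and not called with library size only) and 1.65 with LPS (SE 0.03). Zfp36l2 and Zfp36l1, its relatives, were higher in Cop1 KO (0.56, SE 0.03, and 0.50, SE 0.06) and lower with LPS (-2.89, SE 0.05, and -1.40, SE 0.08).

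Among 5 tested genes for enzymes that cut these ligands, 3 were higher and 1 lower in Cop1 KO, and 2 were higher and 2 lower with LPS. Since 58.4% of all genes were called in Cop1 KO and 73.7% with LPS, these counts too are no result about the list. Adam17, the inducible sheddase of CXCL16, stood at 50.7 and 52.5 nRPKM in Cop1 KO, 114 and 116 nRPKM with LPS and 35.3 and 34.8 nRPKM untreated, a rise of 0.43 and 1.55 on the edgeR log2 scale (SE 0.03 each). Adam10, its constitutive sheddase, was not called in Cop1 KO (-0.08, SE 0.04, adjusted p = 0.057, with a sign that turned with the scaling) and was lower with LPS (-1.26, SE 0.04). Other settings called it lower in Cop1 KO: library size only (-0.27), the 2 groups alone (adjusted p = 0.012), and the fits without LPS library 1 (adjusted p = 0.027) or 2 (adjusted p = 0.025). Mmp12, a macrophage elastase that trims ELR ligands, was lower in Cop1 KO (-0.81, SE 0.02) and was not called with LPS (-0.02). Mmp9 rose by 0.23 in Cop1 KO (SE 0.08) and 1.87 with LPS (SE 0.08), Mmp8 was at 0.47 in Cop1 KO (SE 0.11) and -1.14 with LPS (SE 0.15), and Dpp4, which truncates CXCL10, had 1 count in all libraries together.

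The genes with the most similar profile were found by the distance between log2 CPM profiles, each centred on its own mean. These covered 6 libraries and 13588 genes, and 2 counts, scaled to library size, were added before the log. Cxcl10 was nearest to Acod1, the itaconate-forming enzyme (distance 0.61), and then to Tnfsf15 (1.08). Cxcl9 was nearest to Il1a (0.70) and Cxcl11 (0.96). Cxcl2 was nearest to Oasl1 (0.43) and Iigp1 (0.53), and Cxcl1 to Mmp13 (0.34) and Calhm6 (0.38). For the sparse genes the nearest were Olfr56 (0.40) and Ccl3 (0.45) for Cxcl3, Rbl1 (0.38) and Lap3 (0.40) for Cxcl5, and Cxcl9 (0.96) and Gm14023 (1.06) for Cxcl11. The 2 genes that were abundant in every state had closer neighbours, Nphp4 (0.12) and Tbc1d12 (0.14) for Cxcl14 and Ms4a6b (0.12) and H2-Q4 (0.15) for Cxcl16. With 6 libraries in 3 groups, such likeness rests on 3 group levels and is a description.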

How the data were processed

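RNA from 6 mouse microglia libraries in 3 groups was purified on columns, made into TruSeq libraries that do not keep the strand, and read as 50-base reads, per the labels' protocols. Reads were aligned with GSNAP to GRCm38, per the submitters' processing notes; the sources used here name no version and no annotation. The deposited count is the number of reads aligning uniquely to a gene model, per the file headers. The deposited RPKM value (nRPKM) was adjusted by the authors with size factors, per the file headers.

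Identifiers were matched by number to RefSeq (GRCm38.p6), which named 31049 of 36528; unnamed ones held 1.075% to 1.307% of counts. Tests were run in R 4.3.3, edgeR 4.0.16 (filterByExpr by group, minimum count 10; TMM factors 1.042 and 1.042 for Cop1 KO, 0.806 and 0.806 for LPS, 1.192 and 1.190 for untreated). All libraries entered 1 quasi-likelihood fit with 3 residual degrees of freedom. Benjamini-Hochberg adjustment covered all genes tested, and calls needed an adjusted p below 0.05, whatever the fold. CPM uses the TMM-scaled library size. For a group with 1 to 3 counts the ratio is given with a 95% counting interval, and for a group at 0 a bound at a floor of 3 counts over the group; these cover counting error only. Alternatives were median-of-ratios factors, library size only, no low-count filter, DESeq2 1.42.0, limma 3.58.1 on log2(nRPKM + 1) or log2(nRPKM + 0.1), fits of 2 groups, and leaving out each library. Tables and promoter windows were handled in Python 3.11.15.

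The ligand genes and the lists of pathway, receptor and marker genes were chosen with earlier results of these data known. Named genes are all ligand and receptor genes, of each pathway list up to 3 genes by smallest p per comparison, and for each tested ligand gene the 2 nearest profiles. Other list members and cluster neighbours are named where a count or a figure singles them out, after their values were seen. One gene that the rule names is not reported here.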

Additional observations from a re-analysis of the deposited data

How the results depend on the processing

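Of 371 alternative values for the tested ligand genes, 361 kept their direction and their side of the threshold. Another 8 changed sign, and 2 passed the threshold where the reported value had not. None of the called ligand genes lost its call or turned where it was tested. The 371 include Cxcl1, Cxcl3, Cxcl5 and Cxcl11 in the 2 comparisons with LPS. Those genes were tested through the LPS libraries alone and had to differ there, so the total is no measure of robustness. With log2(nRPKM + 0.1), Cxcl1 (0.38) and Cxcl3 (0.56) also passed in Cop1 KO, which brought the higher ligand genes there to 5 and all called to 6. In that setting 56.1% of all genes were called, and 62.5% of those calls were higher. Leaving out a library left 1 library in its group, which was then assumed to vary like the other groups. Without LPS replicate 2, Cxcl5 was not tested. The uncalled Cxcl9 value in Cop1 KO turned to 0.017 with median-of-ratios factors and with DESeq2, 0.0074 on log2(nRPKM + 1) with or without a filter and 0.013 on log2(nRPKM + 0.1), and ranged from -0.56 to 0.29 over left-out libraries (0.14 without untreated replicate 1). Cxcl11 in Cop1 KO ranged from -1.17 to 0.75. Cxcl2 in Cop1 KO was 1.09 on log2(nRPKM + 1), a scale whose added 1 shrinks low genes. By counts without length, Cxcl10 made up 4.75% of ligand RNA in Cop1 KO, 61.2% with LPS and 1.16% untreated, Cxcl16 74.6%, 12.4% and 52.6%, and Cxcl14 0.651% with LPS and 45.6% untreated. Among other genes, Pf4 with LPS turned to -0.45 with library size only, where it passed, and ranged from -0.073 to 0.26 over left-out libraries, and Cxcr6 in Cop1 KO from -0.36 to 1.41. Ackr3 with LPS was -0.57 with library size only, where it passed, and, without passing, 0.14 with median-of-ratios factors, DESeq2, log2(nRPKM + 0.1) and the 2 groups alone, 0.068 on log2(nRPKM + 1) with or without a filter, and -0.19 to 0.17 over left-out libraries (0.12 without untreated replicate 2). Adam10 in Cop1 KO was 0.0073 with median-of-ratios factors, 0.0074 with DESeq2, 0.050 on log2(nRPKM + 1) with or without a filter and 0.051 on log2(nRPKM + 0.1), none of which passed, and it passed at -0.27 with library size only. The cause of these changes was not tested. Library size only moved the median of all genes to -0.20 in Cop1 KO, -0.74 with LPS and 0.40 for Cop1 KO against LPS. No paired analysis was possible because the labels give no replicate numbers. Depth limits Cxcl3, Cxcl5, Cxcl11 and Cxcl13, which had at most 4 counts in any library without LPS.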

Other observations

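Of 9 neutrophil markers, S100a9, Ly6g, Ngp, Elane, Mpo and Retnlg had no count in any library. The neutrophil sum of 209 to 214 CPM in Cop1 KO, 95.6 to 96.9 CPM with LPS and 79.7 to 81.2 CPM untreated was almost all Csf3r, which microglia also express, at 35.3 and 34.7 nRPKM in Cop1 KO, 16.3 and 16.2 nRPKM with LPS and 12.1 and 12.3 nRPKM untreated. The 8 monocyte and macrophage markers summed to 820.2 to 828 CPM in Cop1 KO, 993 to 1006 CPM with LPS and 1231 to 1254 CPM untreated, with Ly6c2 at 0 throughout; their sum was mostly Fn1, which also stands in the fibroblast list. The 8 fibroblast markers summed to 826 to 827 CPM in Cop1 KO, 915 to 921 CPM with LPS and 1045 to 1059 CPM untreated. Here too Fn1 made up most of the sum (689 and 693 CPM in Cop1 KO, 963 and 978 CPM untreated). Against untreated wild type, 58.4% of all genes tested were called in Cop1 KO (28.1% higher, 30.3% lower). Of the 7 fibroblast markers tested there, 4 were higher, 2 were lower and 1 was not called. Those higher were Col1a1 (2.40-fold), Col1a2 (1.97-fold), Col3a1 (3.20-fold) and Dcn (4.20-fold), and those lower were Fn1 and Pdgfra. The 8 dendritic cell markers summed to 269 to 271 CPM in Cop1 KO, 299 to 300.3 CPM with LPS and 322 to 325 CPM untreated, with Cd209a at 0 throughout. Most of this sum was Itgax. With LPS, Xcr1 (108-fold) and Clec9a (17.6-fold) were higher than in untreated wild type and Itgax was lower. The other 2 of the 5 tested were not called, where 73.7% of all genes were called. The 9 oligodendrocyte lineage markers summed to 132 to 133 CPM in Cop1 KO, 154 to 163 CPM with LPS and 233 to 238 CPM untreated. In Cop1 KO most of the sum was Mbp (88.9 and 92.7 CPM), which was 1.45-fold higher than in untreated wild type. Of the 8 tested, 6 were lower, 1 was higher and 1 was not called in Cop1 KO, where 58.4% of all genes were called. The 8 endothelial and mural markers summed to 148 to 152 CPM in Cop1 KO, 159.8 to 162 CPM with LPS and 144 to 146 CPM untreated, with Cldn5 at 0 throughout. Of the 5 endothelial and mural markers tested, 3 were higher, 1 lower and 1 not called in Cop1 KO, where 58.4% of all genes were called. With LPS 4 were higher and 1 lower, where 73.7% of all genes were called. Pdgfrb was 3.33-fold higher in Cop1 KO and 20.2-fold higher with LPS, and Vwf was the lower gene in both. The part of the cells of these marker lists in the ligand levels was not tested.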
